A study of Mus musculus with 5 samples.

Results

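The genes described here carry glucose into the cell, break it down to pyruvate and lactate, admit pyruvate to mitochondria through the pyruvate dehydrogenase complex, and set or report the cell's response to low oxygen. They were chosen by name, 35 genes in all, with earlier results of these data known. A gene counted as measured where a feature of the array was annotated to that gene alone. This held for 32 of the 35 genes, out of 19938 genes measured in the series. Gpi1, Gapdh and Eno1 had no feature annotated to them alone and were not analysed here. Where a gene had several such features, the brightest was used.

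Glycolysis turns glucose into pyruvate in a fixed order of steps: glucose enters through GLUT transporters, is phosphorylated by hexokinase, committed by phosphofructokinase and split into triose phosphates, which are then oxidised. Pyruvate is either reduced to lactate or oxidised to acetyl-CoA by the pyruvate dehydrogenase complex, which kinases of the Pdk family switch off. When oxygen is low, the hypoxia-inducible factor HIF-1 is no longer marked for destruction by the Egln prolyl hydroxylases and raises many glycolytic genes. Mouse embryonic stem cells are known for a high rate of glycolysis.

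Expression was measured in undifferentiated embryonic stem cells of mouse strain C57BL/6, with 2 wild-type and 3 Mkl2-/- cultures, each hybridised to 1 whole-transcript array. Mkl2 encodes a myocardin-related coactivator of serum response factor. All 5 cultures had grown on gelatin and feeder fibroblasts in serum with leukaemia inhibitory factor, and the feeders were taken away by adhesion before lysis. The design text calls the cultures independent, but how many cell lines or clones stand behind each genotype is left unstated in the sources used here, so a p-value measures the spread between cultures only. Values are log2 expression as deposited, and every difference is the Mkl2-/- mean minus the wild-type mean with its standard error (SE, n = 2 and 3). A gene was called changed at an adjusted p under 0.05 in limma, with Benjamini-Hochberg adjustment over all 19938 genes.

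The arrays of the same genotype correlated at 0.998 to 0.999 over all genes, and those of different genotypes at 0.992 to 0.994. Of the 3 features of Mkl2 itself, only the brightest is reported here. It read 9.80 and 9.75 on the wild-type arrays against 9.32, 9.32 and 9.09 in Mkl2-/- (-0.53 ± 0.09, limma adjusted p = 0.048). Whether that feature lies in the deleted part is left unstated in the sources used here. The stem cell markers Pou5f1 (12.48 to 12.54 over the 5 arrays) and Sox2 (11.81 to 11.92) were high on every array, and all 10 markers followed lay above the background level of 7.30, the 95th percentile of 1027 olfactory receptor genes. Of these 10 markers, Nanog (-1.14) and Klf4 (-0.69) fell, Dppa5a (0.49) and Utf1 (0.39) rose, and 6 did not pass. Thus 4 of the 10 were called, beside 12.9% of all genes above background. The part of the stem cell markers in the results was not tested. The mean over 19 fibroblast markers was 8.13 and 8.11 in wild type and 8.03 to 8.07 in Mkl2-/-. Of those markers 2 fell, 1 rose and 16 did not pass, beside 6.28% called lower and 2.99% called higher among all genes. On each array 16 were above background, while Lum, Postn and Fap were below it on all arrays. The calls among fibroblast markers went both ways, but their median difference was -0.06, beside 0.02 over all genes. Arrays of both genotypes did not overlap for 7 of the 19, of which 5 were lower and 2 higher in Mkl2-/-. Among all 19938 genes, 3321 were lower and 3377 higher without overlap. The part of the fibroblast markers in the results was not tested.

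Of the 32 measured genes, 4 rose in Mkl2-/- (Bnip3, Pfkl, Pdk1 and Ldha) and 7 fell (Pdha1, Ldhb, Hk2, Slc2a3, Slc2a1, Pfkfb3 and Slc16a1), while 21 did not pass the test. The rises made up 12.5% of the measured genes and the falls 21.9%, beside 2.99% called higher and 6.28% called lower among all genes. All measured genes but Car9 lay above background, and 11 of these 31 were called (35.5%), beside 12.9% of all genes above background. The arrays of both genotypes did not overlap for 18 of the 31 (58.1%), beside 43% of all genes above background. As the genes were chosen with earlier results of these data known, these shares describe the list and test nothing. The median difference of the 32 genes was -0.01, and that of all genes 0.02. Differences of 1.5-fold or more were seen in 5 genes: Pdha1, Ldhb, Hk2 and Slc2a3 downwards and Bnip3 upwards, the latter on the brightest of its features only.

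All 11 calls kept their direction under cyclic loess, quantile normalization and the mean of a gene's features. The other alternatives could not reverse a direction. They kept the same group means or, for these genes without overlap between groups, left out an array or blocked by replicate number. The number of calls depended on the arrays, the scaling and the moderation of variances. With wild-type replicate 2 left out, limma called 0 of the 32 genes, although 16 of them had a p under 0.05 before adjustment (lowest adjusted p of any gene 0.058). Leaving out wild-type replicate 1 gave 4 rises and 4 falls, with Egln3 (0.13) called and Pdk1 not, leaving out Mkl2-/- replicate 1 or 2 gave 0 rises and 4 falls, and leaving out Mkl2-/- replicate 3 gave 2 rises and 5 falls. Of the 5 fits with an array left out, the 4 other than that without wild-type replicate 2 all called the falls of Pdha1, Ldhb, Hk2 and Slc2a3. Without moderation 2 rises and 4 falls were called, and Slc2a1, Pfkl, Pfkfb3, Slc16a1 and Bnip3 did not pass. Among all genes 32.3% of the calls were rises, and 45.9% once the deposited values were also quantile normalized. That normalization gave 7 rises and 7 falls among the members, with Pfkm, Pfkp and Pdhb among the rises, Pdk3 among the falls and Slc16a1 no longer called.

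**Figure D1:**
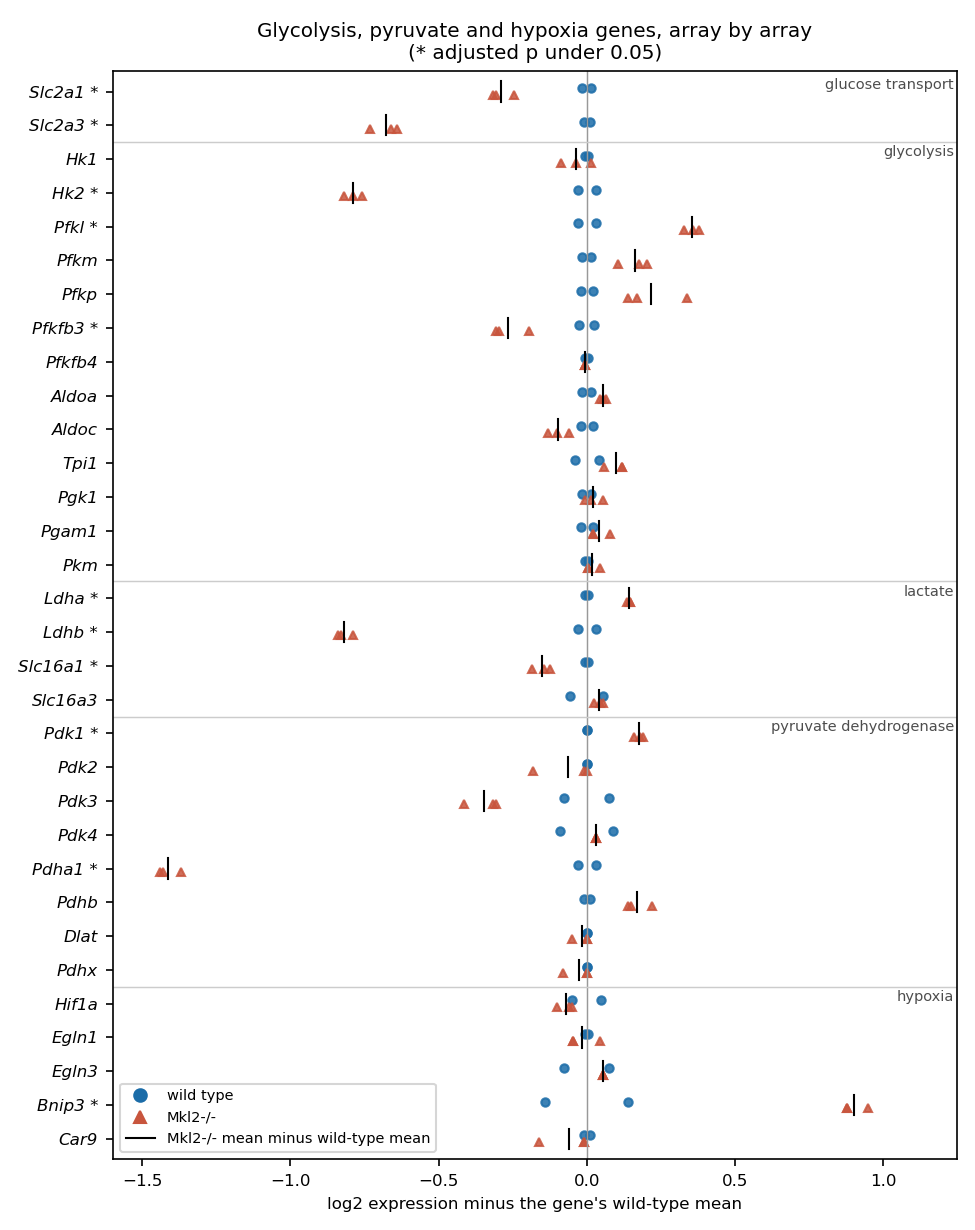
Each symbol is 1 array's log2 expression minus the gene's own wild-type mean, for the 32 measured genes in pathway order; circles are the 2 wild-type arrays, triangles the 3 Mkl2-/- arrays, and the black bar is the difference of the means. Pdha1 (-1.41) lies farthest to the left and Bnip3 (0.90) farthest to the right, while the bars of Aldoa, Pgk1, Pgam1 and Pkm lie at 0.06, 0.02, 0.04 and 0.02.

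Both glucose transporter genes were lower in Mkl2-/-. In these bulk samples, fewer cells of a type and less RNA per cell cannot be told apart. Slc2a3 encodes GLUT3, a transporter with high affinity for glucose. It read 13.49 and 13.47 on the wild-type arrays against 12.75, 12.84 and 12.82 in Mkl2-/-. All 3 Mkl2-/- arrays thus lay well below both wild-type arrays, and the fall was 1.60-fold (-0.68 ± 0.03, limma adjusted p = 0.0071). Slc2a1 encodes GLUT1, the broadly expressed basal transporter. Its arrays read 13.46 and 13.43 against 13.13, 13.14 and 13.20, again without overlap. The fall was 1.22-fold (-0.29 ± 0.03, limma adjusted p = 0.017), and of the fits with an array left out it passed only that without Mkl2-/- replicate 3 (adjusted p up to 0.096).

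At the hexokinase step the isoforms differed in what the test found. Hk2, the inducible hexokinase that binds mitochondria, read 10.34 and 10.28 on the wild-type arrays against 9.49, 9.52 and 9.55 in Mkl2-/-. The groups were far apart relative to their spread, and the fall was 1.73-fold (-0.79 ± 0.03, limma adjusted p = 0.0060). Hk1, the widely expressed isoform, read 13.25 and 13.26 against 13.22, 13.17 and 13.27 on its brightest feature. The arrays of that feature overlapped and the difference was -0.04 ± 0.03, with a 95% interval of -0.13 to 0.06. It is numbered among features of chromosome 14. The other feature, numbered among those of chromosome 10, where the gene lies, read far lower. Its values were 8.29 and 8.37 against 8.19, 8.29 and 8.22 (-0.10 ± 0.04). The level of Hk1 beside Hk2 thus depends on the feature taken.

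Phosphofructokinase subunit genes read higher in Mkl2-/- and a gene for its regulator read lower. Pfkl, the liver-type subunit, read 10.57 and 10.51 on the wild-type arrays against 10.90, 10.87 and 10.92 in Mkl2-/-. That is a 1.28-fold rise with no overlap (0.36 ± 0.03, limma adjusted p = 0.012), and it did not pass with any single Mkl2-/- array or wild-type replicate 2 left out (adjusted p up to 0.067). The muscle-type Pfkm (0.16 ± 0.04, adjusted p = 0.087) and platelet-type Pfkp (0.22 ± 0.07, adjusted p = 0.19) did not pass in limma, although no Mkl2-/- array of either overlapped with wild type. Pfkfb3 encodes an enzyme that makes fructose 2,6-bisphosphate, the activator of phosphofructokinase. It read 9.71 and 9.76 on the wild-type arrays against 9.43, 9.54 and 9.44 in Mkl2-/-. This 1.20-fold fall was just inside the threshold (-0.27 ± 0.04, limma adjusted p = 0.047) and did not pass with any array left out (adjusted p up to 0.205). Pfkfb4, of the same enzyme family, read 7.65 or 7.66 on all 5 arrays.

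The enzymes of the lower part of glycolysis differed little, and none of the 6 measured ones passed in limma, although Aldoa and Aldoc had an unadjusted p under 0.05 (0.023 and 0.027). Aldoa, the main aldolase, read 12.90 and 12.93 against 12.98, 12.96 and 12.97. These arrays did not overlap, yet the difference was only 0.06 ± 0.015 (limma adjusted p = 0.13). Aldoc, the brain-type aldolase, differed by -0.10 ± 0.03 (adjusted p = 0.15 in limma), also without overlap. The triose phosphate isomerase gene Tpi1 differed by 0.10 ± 0.04 (adjusted p = 0.22 in limma), and its arrays did not overlap either. For Pgk1 (phosphoglycerate kinase), Pgam1 (phosphoglycerate mutase) and Pkm (pyruvate kinase) the differences were 0.02, 0.04 and 0.02, the arrays overlapped, and the 95% intervals ran from -0.05 to 0.09, -0.04 to 0.12 and -0.03 to 0.07. For these 3 genes the intervals leave room for changes of at most 0.12 on the log2 scale.

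The lactate dehydrogenase genes moved in opposite directions. Ldhb encodes the subunit of the heart-type enzyme, usually linked to the use of lactate. It read 10.81 and 10.75 on the wild-type arrays against 9.95, 9.94 and 9.99 in Mkl2-/-. The fall was 1.77-fold with no overlap (-0.82 ± 0.03, limma adjusted p = 0.0059). Ldha encodes the subunit of the muscle-type enzyme that makes lactate from pyruvate. It read 12.97 and 12.98 on the wild-type arrays against 13.12, 13.12 and 13.11 in Mkl2-/-. The rise was small but larger than the spread between arrays (0.14 ± 0.01, limma adjusted p = 0.011), and it did not pass without wild-type replicate 2, Mkl2-/- replicate 1 or Mkl2-/- replicate 2 (adjusted p up to 0.062). Nor did it pass when only genes with at least 4 different values were fitted (adjusted p = 0.060 in limma).

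Of the lactate transporter genes, Slc16a1 (MCT1, which carries lactate in both directions) read 11.90 and 11.89 on the wild-type arrays against 11.71, 11.77 and 11.75 in Mkl2-/-. The fall was 1.11-fold (-0.15 ± 0.02, limma adjusted p = 0.037) and did not pass with any array left out (adjusted p up to 0.151). Slc16a3 (MCT4, the exporter of highly glycolytic cells) differed by 0.04 ± 0.04, with overlapping arrays and a 95% interval of -0.07 to 0.15.

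**Figure D2:**
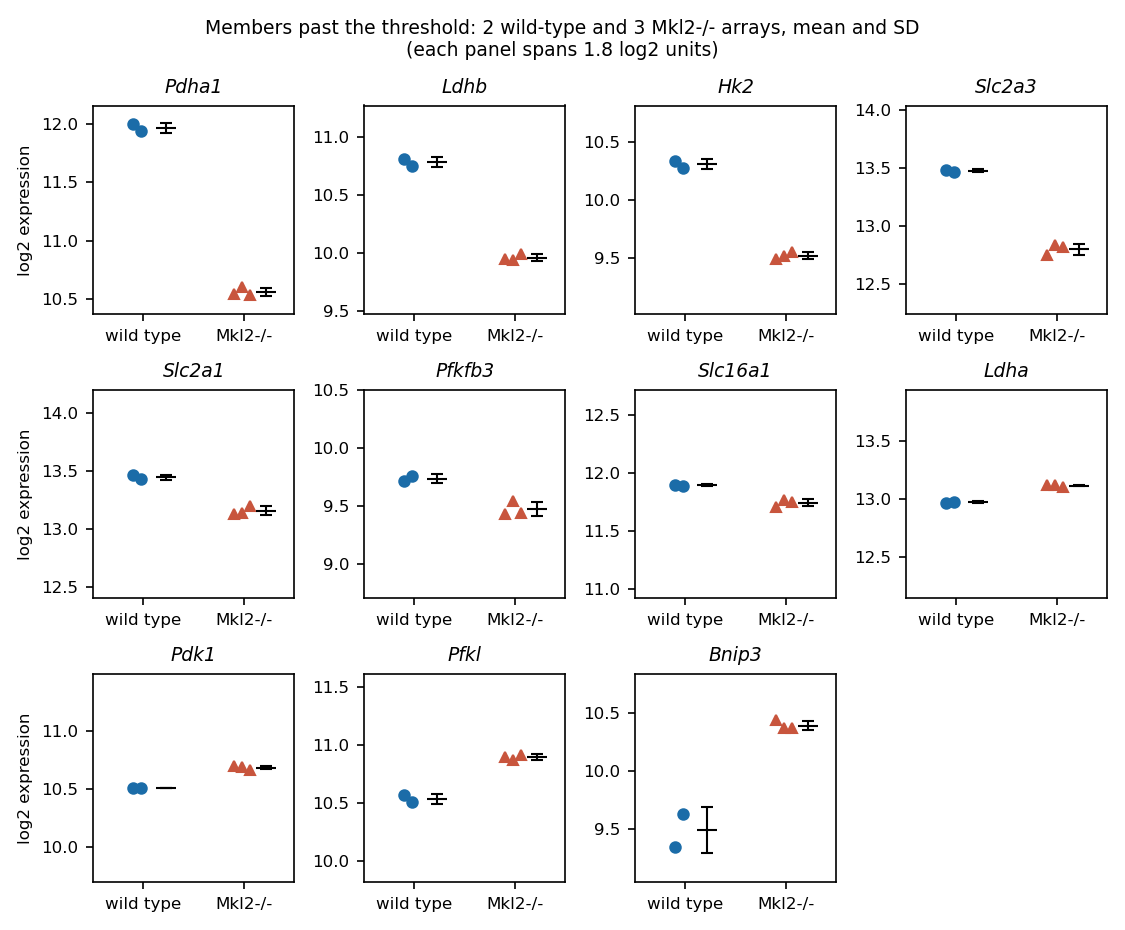
Log2 expression of the 11 genes past the threshold on each array, ordered from the largest fall to the largest rise, with circles for wild type, triangles for Mkl2-/-, and the mean with SD to the right of each group; every panel spans the same 1.8 log2 units. In none of the panels do the groups overlap, and the wild-type arrays of Bnip3 (9.35 and 9.63) lie farther apart than those of any other gene shown.

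In the pyruvate dehydrogenase complex a single subunit gene accounted for the largest difference of all 32 genes. Pdha1 is the X-linked gene for the alpha subunit of E1, the component that decarboxylates pyruvate and carries the sites the kinases act on. It read 12.00 and 11.94 on the wild-type arrays against 10.54, 10.60 and 10.53 in Mkl2-/-. The fall was 2.66-fold (-1.41 ± 0.03, limma adjusted p = 0.0041), the widest gap between the groups among these genes. Its partner subunit gene Pdhb differed the other way: 9.29 and 9.27 against 9.43, 9.50 and 9.42, without overlap and just outside the threshold (0.17 ± 0.03, limma adjusted p = 0.056). The genes for the E2 core (Dlat, -0.02 ± 0.02) and the E3-binding protein (Pdhx, -0.03 ± 0.03) did not pass in limma (adjusted p = 0.62 and 0.60), and each held a single value on 4 of the 5 arrays.

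Among the kinases that inactivate the complex, Pdk1, a hypoxia-induced isoform, rose from 10.51 on both wild-type arrays to 10.70, 10.69 and 10.67 in Mkl2-/-. The rise was 1.13-fold (0.18 ± 0.01, limma adjusted p = 0.012) and passed with Mkl2-/- replicate 3 left out but with no other array left out (adjusted p up to 0.076). Pdk3, an X-linked isoform, read 10.38 and 10.53 on the wild-type arrays against 10.14, 10.15 and 10.04 in Mkl2-/-. It was lower without overlap but lay outside the threshold (-0.35 ± 0.06, limma adjusted p = 0.059). Pdk2 (-0.06 ± 0.07) and Pdk4, the isoform known for its response to fasting (0.03 ± 0.06), had overlapping arrays and did not pass in limma (adjusted p = 0.57 and 0.75).

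Of the 5 members listed as hypoxia regulators or markers (Hif1a, Egln1, Egln3, Bnip3 and Car9), Bnip3 passed and 4 did not. Bnip3 encodes a mitochondrial protein that promotes mitophagy and is a known HIF-1 target. It read 9.35 and 9.63 on the wild-type arrays against 10.44, 10.37 and 10.37 in Mkl2-/-. The rise was 1.87-fold (0.90 ± 0.10, limma adjusted p = 0.020) on the brightest feature and 1.40-fold (0.49 ± 0.05) on the other. The brightest is numbered among features of chromosome 14 and the other among those of chromosome 7, where the gene lies. The rise on the brightest feature passed without wild-type replicate 1 but not with any other array left out (adjusted p up to 0.099). Hif1a, the oxygen-regulated subunit of HIF-1, read 11.83 and 11.93 against 11.83, 11.78 and 11.82, with overlap (-0.07 ± 0.04, limma adjusted p = 0.39). The hydroxylase genes Egln1 (-0.02 ± 0.04) and Egln3 (0.06 ± 0.05) had overlapping arrays and did not pass in limma (adjusted p = 0.80 and 0.51). Car9, the carbonic anhydrase gene often used as a marker of hypoxia, was below background on all 5 arrays (6.52 to 6.69).

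Other genes of oxygen sensing and other HIF targets were followed as a list. Of 27 such genes measured, all above background, 2 rose, 2 fell and 23 did not pass, with a median difference of -0.01. The 14.8% called lay near the 12.9% of all genes above background. Epas1, which encodes HIF-2 alpha, read 9.37 and 9.40 on the wild-type arrays against 10.39, 10.29 and 10.19 in Mkl2-/-. It rose 1.87-fold (0.91 ± 0.07, limma adjusted p = 0.011), and Plod2, a collagen lysyl hydroxylase gene, rose by 0.29 ± 0.04 (adjusted p = 0.030 in limma). Vegfa, the angiogenic growth factor, fell from 9.98 and 10.06 to 9.63, 9.57 and 9.66 (-0.40 ± 0.04, adjusted p = 0.019 in limma). The histone demethylase gene Kdm3a fell as well (-0.62 ± 0.09, limma adjusted p = 0.035).

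**Figure D3:**
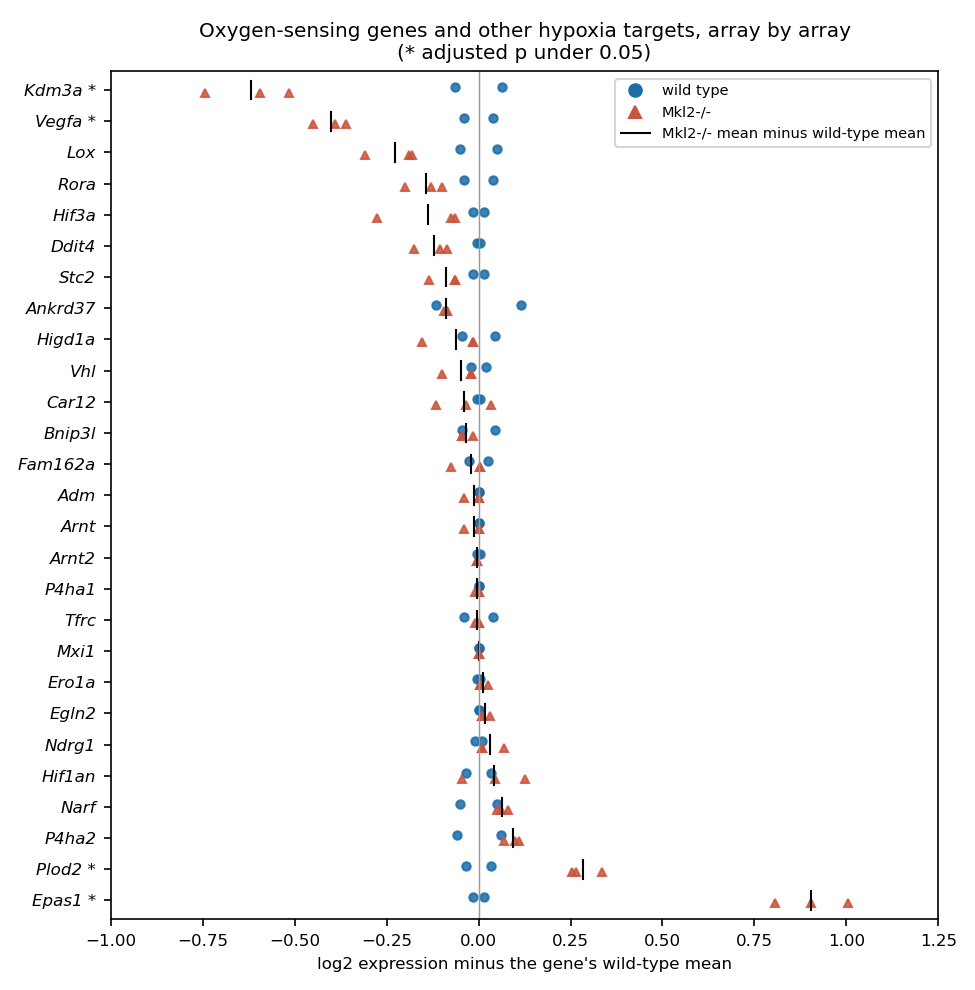
Each symbol is 1 array's log2 expression minus the gene's wild-type mean for 27 oxygen-sensing genes and hypoxia targets outside the 35, sorted by difference; circles are wild type and triangles Mkl2-/-. Kdm3a (-0.62) and Vegfa (-0.40) stand at the low end, Plod2 (0.29) and Epas1 (0.91) at the high end, and most others lie near zero.

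Promoter sequences are shown for 3 HIF-responsive genes that changed in different directions and hold the core letters of the hypoxia response element. As all of them hold the letters, the display cannot show how often genes that rose or fell do. The other genes that rose, Pfkl and Pdk1, had no match in any window. The stretches are the 250 bases before a RefSeq gene start in build GRCm38.p6, printed 5′ to 3′ on the gene's strand, with capitals for ACGTG and its reverse complement CACGT. Where these overlap they read CACGTG, the palindrome that is counted once on each strand. Ldha has a further start, whose window holds no match; the start with matches is the one shown.
Bnip3 (rose; chr7:138909507-138909756, minus strand): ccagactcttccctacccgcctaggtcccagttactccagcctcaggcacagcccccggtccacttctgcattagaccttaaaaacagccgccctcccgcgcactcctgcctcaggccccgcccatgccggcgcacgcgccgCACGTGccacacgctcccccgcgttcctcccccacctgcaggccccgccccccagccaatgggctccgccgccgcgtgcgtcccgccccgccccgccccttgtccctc
Ldha (rose; chr7:46845554-46845803, plus strand): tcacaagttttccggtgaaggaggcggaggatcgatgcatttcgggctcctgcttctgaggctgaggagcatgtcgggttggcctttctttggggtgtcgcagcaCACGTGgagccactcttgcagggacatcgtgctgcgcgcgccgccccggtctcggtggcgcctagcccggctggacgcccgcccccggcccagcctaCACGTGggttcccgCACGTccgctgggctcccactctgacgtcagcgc
Hk2 (fell; chr6:82774455-82774704, minus strand): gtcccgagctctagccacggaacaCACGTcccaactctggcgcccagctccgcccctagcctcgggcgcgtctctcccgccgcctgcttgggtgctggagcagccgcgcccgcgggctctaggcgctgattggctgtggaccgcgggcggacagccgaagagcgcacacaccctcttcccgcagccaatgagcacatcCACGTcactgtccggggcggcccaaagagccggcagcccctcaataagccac

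In windows reaching from 250 bases before to 50 bases after the start, 34 of the 35 genes had an entry, and Slc2a3 had none. ACGTG on either strand was found in at least 1 window of 22 of the 34 genes. Counted by window, 52.1% of the 48 windows of these genes held it, beside 19.6% of 32851 windows of the same length. The windows of these genes also held more CG pairs, with a median of 20.5 beside 7 over all windows. By call, the windows held the letters for 2 of 4 genes that rose, 4 of 6 that fell and 15 of 21 that did not pass. Within the 250 bases before the start, they were found for 2, 4 and 13 of these genes, since those of Hk1 and Aldoc lie after it. A match is a description of the letters and not a binding site.

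The falls of Pdha1 and Hk2 were shared by genes beside them on the chromosome. For each gene the 10 nearest expressed genes on each side were taken from the RefSeq gene order. Expressed genes are those above background, and 1191 of all 13564 such genes fell. Around Pdha1 on chromosome X, 12 of 20 neighbours fell and none rose, with a median difference of -0.77 and a range of -2.66 to 0.17. The nearest were Map3k15 (-1.70) and Phka2 (-1.02). Around Hk2 on chromosome 6, 9 of 20 fell and none rose, with a median of -0.42, a range of -0.86 to 0.21, and Pole4 (-0.48) and Sema4f (0.00) nearest. What the neighbours have to do with the fall of Pdha1 or Hk2 was not tested.

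The other changed genes stood among neighbours whose median was near zero, although single neighbours differed widely. Their ranges were widest around Pfkfb3 (-1.43 to 2.87), Pfkl (-0.89 to 0.94) and Slc2a3 (-1.14 to 0.125). Slc2a3 lies next to Nanog on chromosome 6, and Nanog fell by 1.14 on the log2 scale, but the median of the 20 neighbours was -0.02 and 3 of them fell. For Ldhb the neighbours' median was 0.01 with Golt1b (0.07) and Kcnj8 (0.12) nearest, and for Bnip3 it was 0.06 with Ppp2r2d (0.23) and Dpysl4 (-0.51) nearest. The neighbours' median was 0.09 for Pfkl (nearest Cfap410 at 0.00 and Aire at 0.21), 0.06 for Ldha (Gtf2h1 at 0.30 and Tsg101 at -0.03) and 0.06 for Pdk1 (Itga6 at -0.22 and Map3k20 at 0.17). It was 0.05 for Slc2a1 (Gm12863 at 0.15 and Zfp691 at 0.03), 0.03 for Slc16a1 (Lrig2 at -0.01 and Tafa3 at 0.06) and -0.01 for Pfkfb3 (Mir297b at -0.36 and Rbm17 at 0.08). Of the other hypoxia genes, Kdm3a stood among lower genes of chromosome 6 (median -0.41, 10 of 20 fell), while Epas1 had a neighbour median of 0.01.

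**Figure D4:**
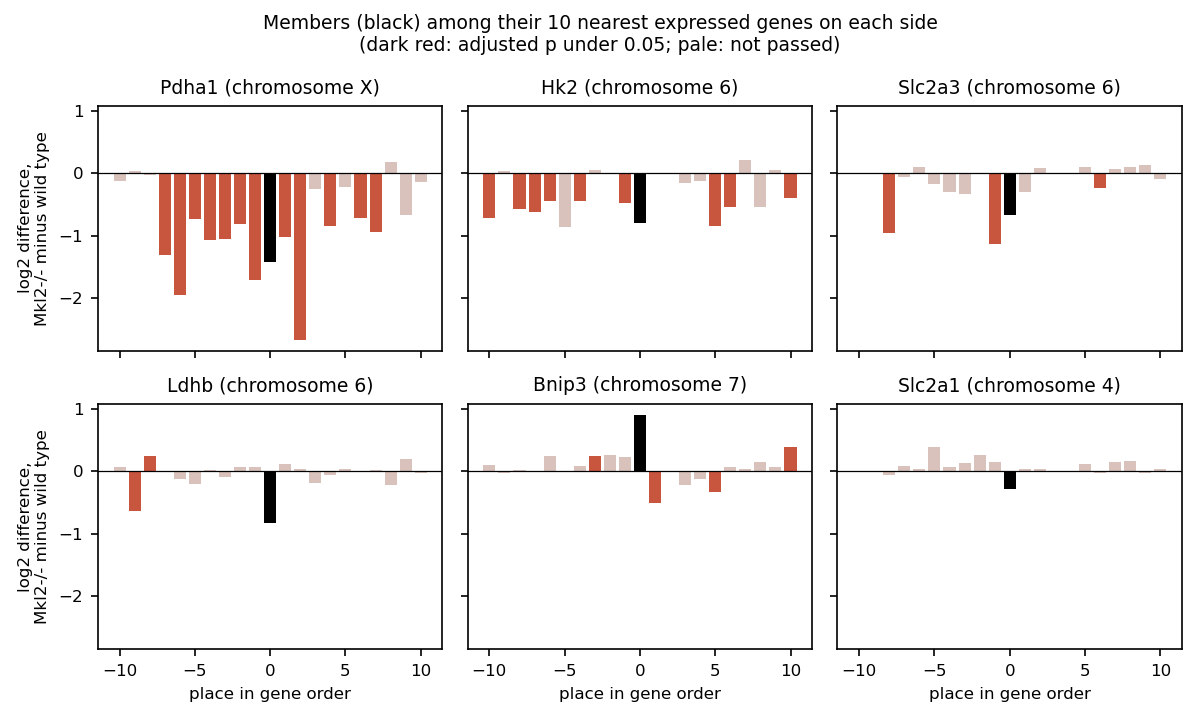
Bars give the log2 difference of 6 changed genes (black, at place 0) and of the 10 nearest expressed genes on each side in gene order; dark red bars passed the threshold and pale bars did not. The bars around Pdha1 and Hk2 point mostly downwards (medians -0.77 and -0.42). Those around Slc2a3, Ldhb, Bnip3 and Slc2a1 have medians of -0.02 to 0.06. Around Slc2a3 the bars reach from -1.14 to 0.125, with the longest pointing downwards.

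Routes next to glycolysis were followed with gene lists. Together with the hypoxia list these held 103 measured genes, of which 4 rose and 10 fell. Of the 90 above background 15.6% were called, near the 12.9% of all genes above background. Among 19 other isoforms and regulators of glycolysis, 2 fell, none rose and 17 did not pass (median 0.01). Of the 13 above background 15.4% were called. Eno3, the muscle-type enolase, read 10.20 and 10.23 on the wild-type arrays against 9.08, 9.18 and 9.25 in Mkl2-/-, a 2.06-fold fall (-1.05 ± 0.06, limma adjusted p = 0.0079). Its neighbours' median was 0.06. Slc2a4, the insulin-regulated transporter GLUT4, fell by 0.31 on the log2 scale (SE 0.03, limma adjusted p = 0.019). Hkdc1, Eno2 and Bsg, which share a reaction or a transporter with genes above, differed by 0.21, -0.35 and 0.03 and did not pass in limma (adjusted p = 0.25, 0.17 and 0.40).

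Of 21 genes of gluconeogenesis and glycogen, Pcx rose, Phka2 fell and 19 did not pass (median 0.00). Of the 17 above background 11.8% were called, near the 12.9% of all genes above background. Pcx encodes pyruvate carboxylase, which turns pyruvate into oxaloacetate. It read 8.23 and 8.25 on the wild-type arrays against 8.50, 8.62 and 8.55 in Mkl2-/- (0.32 ± 0.04, limma adjusted p = 0.029). Phka2, a phosphorylase kinase subunit gene, is the neighbour of Pdha1 named above. In the pentose phosphate pathway 1 of 9 genes passed, H6pd (-0.18 ± 0.03, limma adjusted p = 0.046), and the median was -0.06.

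None of 8 genes for pyruvate entry and the rest of the dehydrogenase complex passed in limma, although 2 had an unadjusted p under 0.05 and arrays that did not overlap; these are named here after their values were seen. Mpc1, a subunit of the mitochondrial pyruvate carrier, differed by 0.33 ± 0.08 (adjusted p = 0.093 in limma). Dld, the E3 subunit shared with other complexes, differed by -0.24 ± 0.05 (adjusted p = 0.076 in limma). Of 19 citric acid cycle genes, 4 fell, 1 rose and 14 did not pass (median -0.05). All 19 lay above background, and 26.3% were called, beside 12.9% of all genes above background. Idh1 fell most (-0.87 ± 0.10, adjusted p = 0.025), followed by Suclg1 (-0.45 ± 0.02, adjusted p = 0.0067), Sdhc (-0.24 ± 0.04, adjusted p = 0.038) and Idh2 (-0.22 ± 0.03, adjusted p = 0.033), all in limma. Suclg1 is among the neighbours of Hk2, and Idh1 and Sdhc lie on chromosome 1 with neighbour medians of -0.25 and -0.14. Mdh2, the mitochondrial malate dehydrogenase, named as the single rise, rose by 0.20 ± 0.03 (limma adjusted p = 0.041).

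Several of these genes have more than 1 feature or near-identical copies in the genome, and their values carry that limit. The Bnip3 features differed in size: the brightest gave 0.90, the other read 9.19 and 9.31 against 9.70, 9.74 and 9.77, a difference of 0.49 ± 0.05 (limma adjusted p = 0.025 over all 35556 features). For Ldhb the features gave -0.82 and -0.76. The brightest features of Bnip3, Ldhb, Hk1, Pgk1 and Pgam1 are numbered among features of genes on other chromosomes (for Bnip3, all 20 nearest belong to chromosome 14 and the gene to chromosome 7). The position of each feature is left unstated in the sources used here, so whether it was designed on a copy of the gene was not tested. The features of Hk1, Pgk1, Pgam1 and Pkm did not pass whichever was taken (adjusted p over all features of at least 0.349 in limma). In that fit over all features, Pfkfb3 (adjusted p = 0.067 in limma) and Slc16a1 (0.058) did not pass either. The other called genes passed there on their brightest features.

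Repeated values bear on the errors given. At 2 decimals, 38.6% of all genes had the same value on at least 3 of 5 arrays, and 9 of the 32 measured genes did, with Mkl2-/- arrays of Pdk4 all at 8.53 and those of Egln3 all at 9.49. The cause is left unstated in the sources used here. In a fit limited to genes with at least 4 different values, added after the data were seen, 5 of these genes rose and 7 fell. Ldha (adjusted p = 0.060 in limma) and Slc16a1 (0.053) no longer passed there, while Pfkp, Pdhb and Pdk3 did.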

How the data were processed

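Total RNA of 2 wild-type and 3 Mkl2-/- embryonic stem cell cultures was hybridised to Affymetrix whole-transcript arrays. The submitters' processing notes name RMA and Affymetrix Expression Console (version 1.1) as the tools behind the deposited log2 expression values. They cover 35556 features at 2 decimals, with array medians of 7.94 to 7.98, and precision is limited by how few arrays there are. Of the features 21789 carry 1 gene symbol in the platform annotation, 1621 several and 12146 none. The brightest feature with 1 symbol stood for each gene. No further normalization was applied. A linear model per gene with moderated variances (limma 3.58.1, R 4.3.3) compared the genotypes over all 19938 genes. It had 3 residual degrees of freedom, and its p-values had Benjamini-Hochberg adjustment. The fit was also run on simulated data with independent normal noise, and its outcome there is not reported here. Figures were drawn with matplotlib 3.10.9 in Python 3.11.15.

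All measured members are named, with up to 4 genes past the threshold of smallest p from each other list, genes that share a reaction with a member, and the nearest expressed neighbours of changed members. The members and lists were chosen with earlier results of these data known. Alternatives were cyclic loess, quantile normalization, the mean of a gene's features, genes above background only, other moderation, the replicate number as a block, and each array left out.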

Additional observations from a re-analysis of the deposited data

How the results depend on the processing

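The direction of all 11 calls held under cyclic loess, quantile normalization and the mean of a gene's features, the alternatives that could have changed it. The median difference of the members stayed within the spread between arrays in every alternative. The mean of a gene's features, genes above background only, and eBayes with trend and robust kept all counts within 1.5 times. Cyclic loess normalization raised the calls among all genes from 596 to 1005 rises and from 1252 to 1977 falls. Quantile normalization gave 1483 rises among all genes and 7 among the members. Without moderation there were 70 rises and 228 falls among all genes, and 2 and 4 among the members. The fit limited to genes with at least 4 different values, added after the data were seen, gave 1199 rises and 2016 falls. With 1 array left out, rises among all genes ranged from 0 to 473 and falls from 0 to 490, and among the members from 0 to 4 and from 0 to 5. The cause of these shifts was not tested.

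With the replicate number as a block, limma called 0 rises and 0 falls among all genes and 0 and 0 among the members (smallest adjusted p 0.161), although 3827 genes and 14 members had an unadjusted p under 0.05. The numbers share no stated source. Deviations of same-numbered arrays from their genotype means correlated at -0.20 and 0.19. The deviations of the wild-type arrays are equal with opposite sign by construction. These correlations therefore cannot show whether same-numbered arrays share a source, and that was not tested. In fits without 1 wild-type array, the lone wild-type array is assumed to vary like the Mkl2-/- arrays.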
